A study of Mus musculus with 16 samples.

Results

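Tspo encodes the translocator protein, the target of the PET tracers that are used to image activated glia, and it was examined here with 7 genes whose products act with it at the outer mitochondrial membrane. The 8 genes, Tspo, Dbi, Vdac1, Vdac2, Vdac3, Tspoap1, Acbd3 and Hk2, were chosen by name, and each matched 1 row of the 57010 genes in the count table. Earlier results of these data were known when they were chosen. The libraries hold total RNA, depleted of ribosomal RNA, of cells taken from the olfactory bulb (OB) on CD11b microbeads. All mice were 2 months old. WT mice were C57BL/6J, and APP-NL-G-F mice, called knock-in here and KI in the plots, carry the familial changes NL, G and F, known as Swedish, Arctic and Iberian, in a humanised App gene at its own locus. There were 16 libraries, 4 of each sex and genotype, and the labels do not say whether any animals were pooled. A reporting form of the study mentions technical replicates of the sequencing, so the p-values measure the spread between these libraries, part of which may be technical.

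The translocator protein sits in the outer mitochondrial membrane, where it binds cholesterol and many synthetic ligands, and in the brain it is found mostly in microglia, astrocytes and vessel cells. It was first described as the peripheral benzodiazepine receptor. Dbi encodes the acyl-CoA-binding protein, a small cytosolic protein that also serves as its endogenous ligand, and VDAC channels are the pores through which ADP, ATP and other metabolites cross the outer membrane. Tspoap1 and Acbd3 encode proteins that were found as binding partners of TSPO, and hexokinase 2 docks on VDAC and phosphorylates glucose with mitochondrial ATP.

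Between 9052932 and 18117286 counts were assigned per library, and 18227 genes that reached 5 counts in 8 or more libraries were tested, among them all 8 genes examined. Levels are given as CPM, the usual counts-per-million unit, in which the counts of a gene are divided by the total of its library after scaling by the TMM factor. The microglial identity of the libraries was checked with 8 microglial markers, among them P2ry12, Tmem119, Cx3cr1 and Csf1r, whose summed level was 16880 to 20140 CPM, with 0 of the 8 called between genotypes. RNA of other cells was also present: 10 neuron markers summed to 394.3 to 556.1 CPM in WT and 498.7 to 742.5 CPM in knock-in libraries, and 10 astrocyte markers to 586.1 to 1203 and 498.3 to 808.8 CPM. The 8 oligodendrocyte markers summed to 233.4 to 435.6 CPM in WT and 285.4 to 425.3 CPM in knock-in libraries. Endothelial markers summed to 69.99 to 233.3 CPM, border macrophage markers to 409.6 to 860.2, pericyte markers to 23.98 to 99, olfactory ensheathing markers to 30.63 to 91.09, monocyte markers to 14.4 to 26.07, neutrophil markers to 7.751 to 36.13 and red blood cell markers to 0.08384 to 3.507 CPM. No marker of any of these lists was at 0 in every library, and 1 of them all, an oligodendrocyte marker, was called between genotypes.

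Tspo did not differ detectably between the genotypes. The gene (ENSMUSG00000041736) lies on the plus strand at chr15:83447735-83458406 of GRCm39 and is protein-coding. In WT females its level was 6.246, 6.234, 7.058 and 7.423 CPM, and in knock-in females it was 6.213, 7.452, 6.192 and 6.502 CPM. The WT male libraries held 6.843, 8.425, 6.267 and 6.39 CPM, and the knock-in male libraries 5.436, 6.609, 9.306 and 7.298 CPM. The lowest and the highest of the 16 values were both knock-in males, and the groups overlapped throughout. Means were 6.861 ± 0.77 CPM in WT and 6.876 ± 1.17 CPM in knock-in libraries (SD, n = 8 per genotype), and 3 of the 8 knock-in libraries lay above the WT median. The log2 fold change was -0.004 (SE 0.107), with a 95% interval of the fold from 0.854 to 1.16 (edgeR quasi-likelihood test with sex as a term, FDR 0.991). An exact two-sided permutation of genotype within sex gave p = 0.954. This fit therefore leaves room for a rise of Tspo of up to 1.16-fold or a decrease down to 0.854 of the WT level, at the 95% level. The bound holds for this fit only. With the neuron markers as a covariate the log2 fold change was 0.27 (FDR 0.594), above the upper end of 0.22 found here.

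Each library holds only 54 to 150 counts of Tspo, and per kilobase of exons its level is above that of 52.3% of the 17815 tested genes with a known length. A further limit concerns the gene's neighbours. Of the 897 bases of its canonical transcript, 492 (54.8%) lie under exons of genes on the opposite strand, 436 of them under Ttll12 and 56 under Mcat. The strand setting of the counting is not given in the sources used here, and without strand the reads of these genes cannot be told apart. Ttll12 held 93 to 177 counts per library and Mcat 63 to 128, and neither passed the genotype test (FDR 0.802 and 0.582). In such bulk libraries, moreover, fewer cells of a type and less RNA per cell cannot be told apart.

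**Figure D1:**
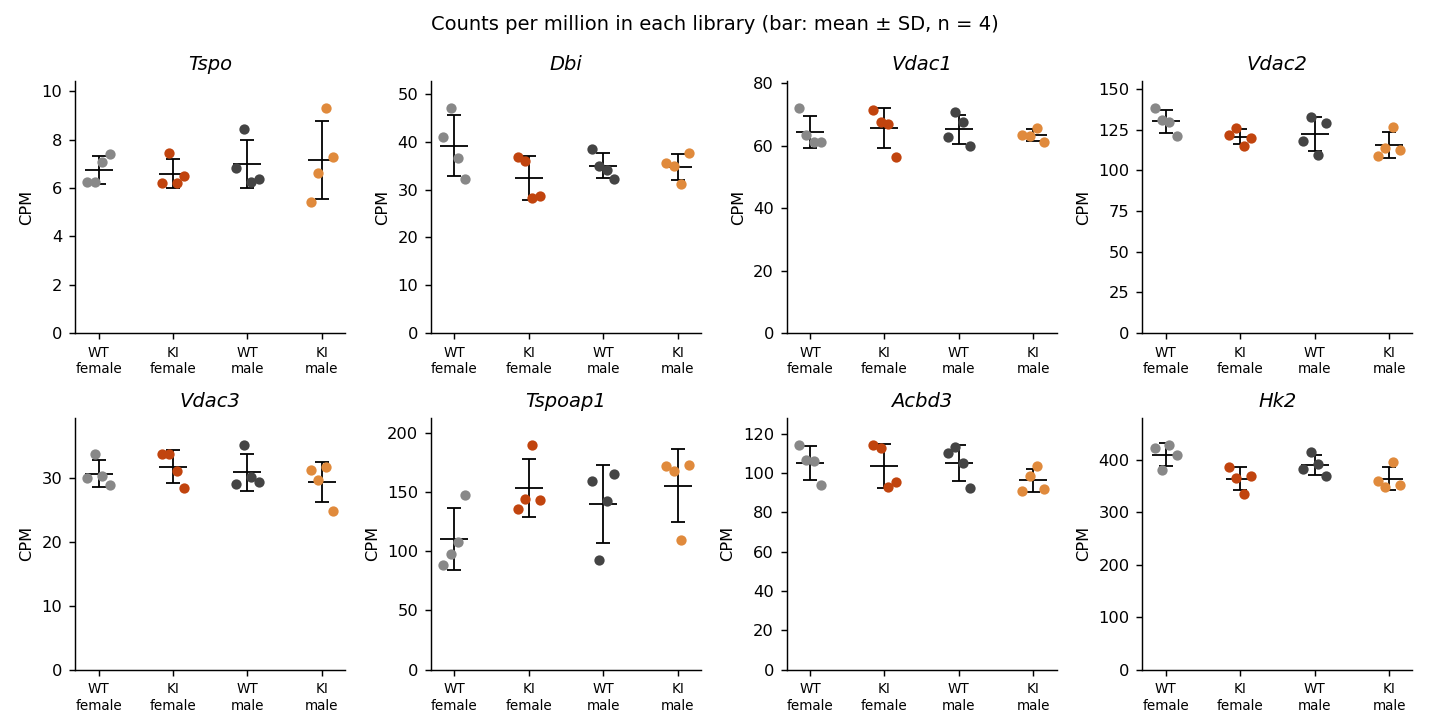
CPM of each of the 8 genes (vertical axis, from 0) in every library of the 4 groups of genotype and sex; points are libraries and bars the mean ± SD of 4. Tspo lies between 5.436 and 9.306 CPM with full overlap of the groups, while 5 of 8 knock-in libraries have less Hk2 than any WT library and Tspoap1 shows the widest scatter.

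Dbi, the ligand gene, had a higher level per kilobase than its receptor gene in every library, and was not called between genotypes. It lies on the minus strand at chr1:120041010-120048808 (ENSMUSG00000026385). WT females held 41.1, 47.1, 36.57 and 32.17 CPM and knock-in females 36.81, 35.92, 28.29 and 28.63 CPM. In males the values were 38.58, 35.05, 34.14 and 32.26 CPM in WT and 35.51, 35.03, 31.1 and 37.68 CPM in knock-in libraries. The 2 highest values were WT females and the 2 lowest knock-in females, whereas the males of the genotypes overlapped nearly fully. Over both sexes the mean was 37.12 ± 5.06 CPM in WT and 33.62 ± 3.73 CPM in knock-in libraries (SD, n = 8 per genotype), a log2 fold change of -0.14 (SE 0.0832, FDR 0.331, exact permutation p = 0.15). Without WT female replicate 2, the library with the highest Dbi level and the highest astrocyte sum, it was -0.081 (FDR 0.595). Within females it was -0.27 (95% interval -0.51 to -0.034, FDR 0.175) and within males -0.008 (FDR 0.987). Tested itself, the sex difference in this effect was -0.26 (95% interval -0.60 to 0.072, FDR 0.919).

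The level of Dbi moved with the astrocyte markers from library to library. After the mean of each group was subtracted, log2 CPM of Dbi and the mean log2 CPM of the 10 astrocyte markers had a Pearson r of 0.882 (exact permutation within groups p = 0.00105, adjusted over 24 relations 0.0126) and a Spearman rho of 0.874 (exact permutation p = 0.000838, adjusted 0.0124) over the 16 libraries. Without the 2 libraries farthest from the median of the marker level, WT females 4 and 2, r was 0.807. The summed level of the markers was 892.9 ± 261 CPM in WT females, 633.2 ± 39.8 CPM in WT males, 635.6 ± 143 CPM in knock-in females and 664.7 ± 116 CPM in knock-in males (SD, n = 4 per group). With the astrocyte markers as a covariate the genotype difference of Dbi was -0.045 (FDR 0.649). These markers had a median log2 fold change of -0.197 between genotypes, with 2 of 10 above 0 and 1 at an FDR below 0.1. This covariate can therefore take up part of a genotype difference. Of the Dbi transcript, 155 of 611 bases (25.4%) lie under exons of 3110009E18Rik on the other strand, a gene with 9 to 32 counts per library.

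**Figure D2:**
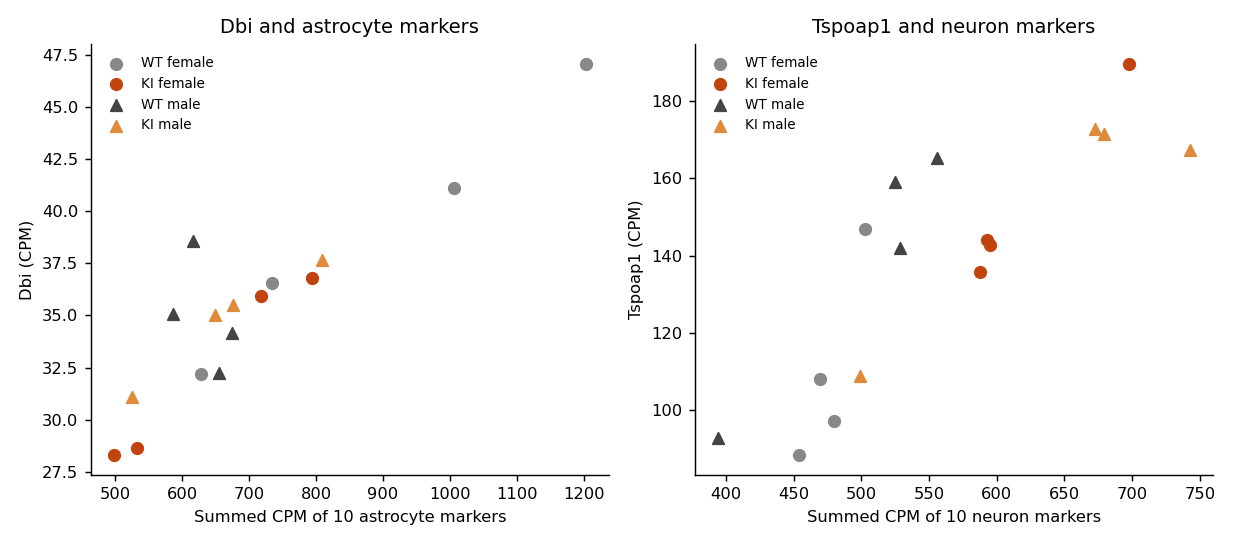
Left, Dbi in CPM against the summed CPM of 10 astrocyte markers; right, Tspoap1 in CPM against the summed CPM of 10 neuron markers, with 1 point per library, coloured by genotype and with circles for females and triangles for males (axes do not start at 0). The WT female with the highest astrocyte sum, 1203 CPM, also has the highest Dbi level, 47.1 CPM, and the knock-in male with the lowest Tspoap1 level of its group, 109 CPM, has the lowest neuron sum of that group, 498.7 CPM.

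The 3 VDAC genes encode channels of one family, and their sequences are shown because reads must separate them for their levels to be compared. Their coding sequences were compared pairwise. Vdac1 and Vdac2 were identical at 70.3% of aligned bases, Vdac2 and Vdac3 at 72.7%, and Vdac1 and Vdac3 at 66.7%. The longest run shared by any pair was 17 bases, which is short beside a sequencing read. The 2 longest shared runs are shown in capitals, each with 20 bases on either side, counted from 1 at the first base of the start codon (GRCm39, gencode canonical transcripts, 5′ to 3′).
Vdac1, coding bases 194 to 250: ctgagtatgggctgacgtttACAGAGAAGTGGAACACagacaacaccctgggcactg
Vdac2, coding bases 194 to 250: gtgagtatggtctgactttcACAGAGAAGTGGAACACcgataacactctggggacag
Vdac2, coding bases 628 to 682: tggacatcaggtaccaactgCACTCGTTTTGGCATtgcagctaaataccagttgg
Vdac3, coding bases 628 to 682: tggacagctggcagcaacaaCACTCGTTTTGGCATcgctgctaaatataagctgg

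Pseudogene copies elsewhere in the genome are closer to the channels than the channels are to each other. A copy of Vdac3 at chr13:18204902-18206214, annotated as Vdac3-ps1, was 99.5% identical to its transcript, and a copy of Vdac2 at chr5:91908552-91909404, annotated as Gm7832, 97.1%. Together the copies of at least 95% identity covered 94.2% of the Vdac3 and 89.2% of the Vdac2 transcript, so a read from either gene may have aligned to more than 1 place. The copies themselves held few counts, 0 to 7 for Vdac3-ps1, 0 to 2 for Gm7591, the other Vdac3 copy, and 3 to 10 for Gm7832. Levels of Vdac2 and Vdac3 are therefore uncertain, since reads with several places may have been left out of the counts. No copy of that length and identity was found for Tspo, Dbi, Tspoap1 or Hk2. Of the Vdac1 transcript, 574 of 2146 bases (26.7%) lie under exons of Gm57370 and Gm73988 on the other strand. That share was 9.6% for Vdac2 and 6.9% for Acbd3.

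None of the channel genes was called between genotypes. Vdac1 (chr11:52251198-52280348, plus strand) ranged from 60.05 to 72.08 CPM in WT and from 56.5 to 71.48 CPM in knock-in libraries, with a log2 fold change of -0.010 (95% interval -0.12 to 0.10, FDR 0.946). Vdac3 (chr8:23066114-23104500, minus strand) ranged from 28.84 to 35.22 and from 24.77 to 33.83 CPM, at -0.012 (95% interval -0.15 to 0.12, FDR 0.944). For these genes an increase above 1.09-fold lay outside the interval. Vdac2 (chr14:21874266-21895952, plus strand), the channel with the highest CPM, was the exception in position. It held 138.3, 131.2, 129.5 and 121.4 CPM in WT females, 121.7, 126.2, 114.9 and 119.6 CPM in knock-in females, 117.8, 133, 109.7 and 128.9 CPM in WT males, and 109.1, 113.9, 126.8 and 112.2 CPM in knock-in males. No knock-in value lay above the WT median, yet the ranges overlapped, and the log2 fold change of -0.10 (SE 0.0462) did not pass the test (FDR 0.208, exact permutation p = 0.0535). Without WT male replicate 3 it was -0.11 with an FDR of 0.0901, under the FDR threshold but not past the fold threshold.

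Tspoap1, also known as RIM-BP1, encodes a scaffold protein of presynaptic active zones that was first isolated by its binding to the translocator protein. It lies on the plus strand at chr11:87651330-87676754 (ENSMUSG00000034156). Of the 8 genes it varied most, with a coefficient of variation of 22.7% over the 16 libraries against 6.82% to 13.9% for the others. The level was 88.38, 97.21, 108 and 147 CPM in WT females and 135.9, 144.1, 189.7 and 142.8 CPM in knock-in females. It was 159.1, 92.79, 142 and 165.3 CPM in WT males and 171.4, 167.3, 109 and 172.8 CPM in knock-in males. In each sex the genotypes overlapped through single libraries, the highest WT female and the lowest knock-in male. The mean was 125 ± 31.6 CPM in WT and 154.1 ± 25.9 CPM in knock-in libraries (SD, n = 8 per genotype), and 7 of 8 knock-in libraries lay above the WT median. A log2 fold change of 0.31 (SE 0.134, 95% interval 0.033 to 0.60) did not pass the FDR (0.155) or the fold threshold of 0.5, with an exact permutation p of 0.0576. Within females it was 0.48 (FDR 0.149) and within males 0.15 (FDR 0.792), and the difference between the sexes was 0.32 (95% interval -0.23 to 0.87, FDR 0.977). Single libraries decided the FDR, which was 0.0351 when knock-in male replicate 3 was left out and 0.0834 when WT female replicate 4 was, with log2 fold changes of 0.40 and 0.39, and in females alone Tspoap1 was called at 0.67 (FDR 0.035) without WT female replicate 4.

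Tspoap1 followed the neuron markers. Group-centred log2 CPM correlated with the mean log2 CPM of the 10 neuron markers with a Pearson r of 0.837 (exact permutation p = 0.00318, adjusted 0.0254) and a Spearman rho of 0.759 (exact permutation p = 0.00639, adjusted 0.0511), and with r of 0.688 without knock-in male replicate 3 and WT male replicate 2. The summed neuron markers were 488.7 ± 51 CPM in WT and 633.3 ± 78.4 CPM in knock-in libraries (SD, n = 8 per genotype), and the 10 had a median log2 fold change of 0.34, with 6 of them at an FDR below 0.1 and none past 0.5. The oligodendrocyte markers summed to 291.7 ± 70.5 CPM in WT and 363.7 ± 48.1 CPM in knock-in libraries (SD, n = 8 per genotype), with 8 of 8 at a log2 fold change above 0, 3 of 8 at an FDR below 0.1 and a median log2 fold change of 0.38, and their part in the differences of Tspoap1, Hk2 and Vdac2 was not tested. With the neuron markers as a covariate, the genotype difference of Tspoap1 was -0.18 (FDR 0.743). Because the neuron markers differ between the genotypes themselves, this covariate takes up part of any genotype difference, and only 13 of all tested genes were called with it. Vdac2 moved against the neuron markers, with r of -0.746 (exact permutation p = 0.000714, adjusted 0.0126) and rho of -0.747 (exact permutation p = 0.00103, adjusted 0.0124). Without knock-in male replicate 3 and WT male replicate 2 its r was -0.557. For Tspo neither adjusted p was under 0.05, with r of -0.741 (exact permutation p = 0.012, adjusted 0.0653) and rho of -0.629 (exact permutation p = 0.0202, adjusted 0.097), and it rested partly on those libraries, without which r was -0.452. With the covariate Tspo stood at 0.27 (unadjusted p from edgeR 0.0484, FDR 0.594).

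Acbd3, a Golgi protein that also binds the translocator protein and protein kinase A, lay between 92.3 and 114.4 CPM in WT and between 91.06 and 114.1 CPM in knock-in libraries. The gene is at chr1:180553571-180583653 on the plus strand. Its log2 fold change was -0.074 (SE 0.0589, FDR 0.49, exact permutation p = 0.243), which is within the spread of the libraries.

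Hk2 was the only one of the 8 genes to pass the FDR, and it did so with a small difference. Hexokinase 2 is the inducible hexokinase, which binds VDAC and feeds glucose into glycolysis. Its gene (ENSMUSG00000000628) lies on the minus strand at chr6:82699740-82751469 and per kilobase of exons its level is above that of 97.4% of the 17815 tested genes with a known length. WT females held 421.9, 379.8, 428.5 and 409 CPM and knock-in females 386.2, 364.9, 333.8 and 369.5 CPM. In males the values were 382, 414.9, 392.4 and 368.6 CPM in WT and 359.9, 347.4, 395 and 352.2 CPM in knock-in libraries. No knock-in library reached the WT median, but 3 knock-in libraries lay within the WT range. Means of 399.6 ± 21.9 CPM in WT and 363.6 ± 20.1 CPM in knock-in libraries (SD, n = 8 per genotype) gave a log2 fold change of -0.14 (SE 0.0435) and a fold of 0.91 (95% interval 0.854 to 0.969). The FDR was 0.0565 and the exact permutation p within sex 0.00612. The difference was far under the fold threshold of the study, so the gene was not called. Within females it was -0.17 (FDR 0.116) and within males -0.099 (FDR 0.561), with -0.073 for the difference between them (95% interval -0.26 to 0.11, FDR 0.987). Leaving out WT male replicate 2, WT female replicate 1, WT female replicate 3, knock-in male replicate 2 or knock-in female replicate 3 raised the FDR to between 0.112 and 0.121, and with the neuron markers as a covariate the log2 fold change was -0.039 (FDR 0.894).

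**Figure D3:**
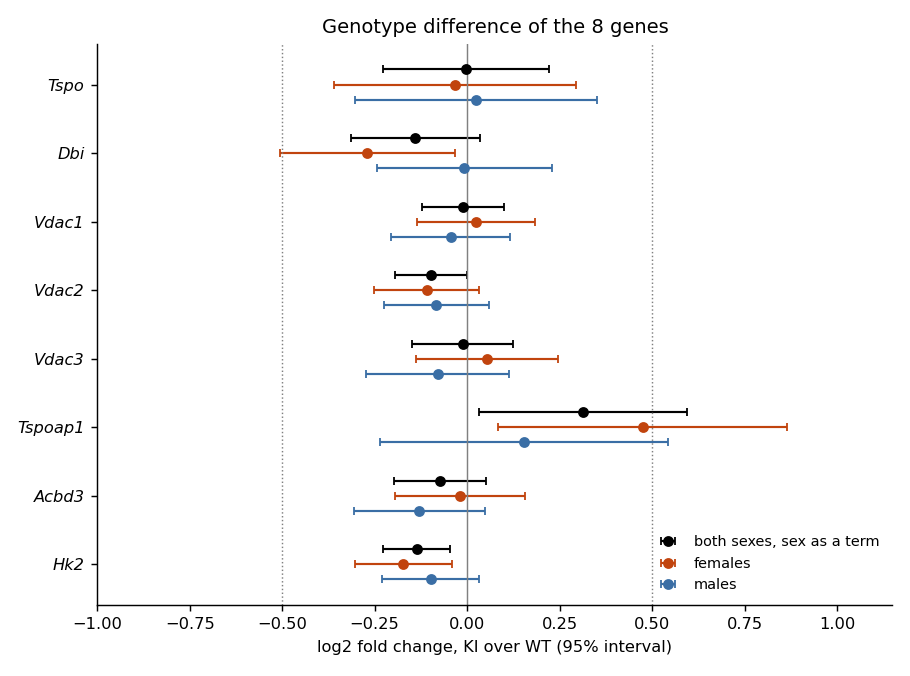
Log2 fold change of KI over WT with its 95% interval for each gene (horizontal axis), over both sexes with sex as a term (black), in females (red) and in males (blue); dotted lines mark the fold threshold of 0.5. Every interval over both sexes except those of Tspoap1 and Hk2 reaches or includes 0, and the interval of Tspo runs from -0.23 to 0.22.

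Of the 8 genes, 0 were called in any of the 5 comparisons at the thresholds used here, an FDR under 0.1 with a log2 fold change beyond 0.5 in either direction, and DESeq2 and limma voom also called 0. Over both sexes 8.64% of all tested genes were called, in females 7.15%, in males 0.252%, for the difference between the sexes 0.0274% and for females against males 0.0604%. At the FDR alone 1 of 8 passed over both sexes, against 14.8% of all genes, and at an unadjusted p under 0.05 (edgeR) there were 2 of 8, against 24.1%. In females 3 of 8 were under that p (Dbi, Tspoap1 and Hk2), against 20.8% of all genes, and 0 of 8 were in males (11.7%), for the difference between the sexes (5.94%) and for females against males (6.56%). The median log2 fold change of the 8 was -0.043 and that of all tested genes -0.001. Over both sexes their share past each threshold was thus near or under the background, and the small number of genes allows no finer reading. Between females and males the differences were also small, the largest being -0.18 for Tspoap1 (FDR 0.823), with -0.091 for Tspo (FDR 0.881). No gene of the 8 had ranges that kept apart in any comparison, where 1.29% of all genes did over both sexes, 12.6% in females, 5.01% in males and 0.0658% between the sexes.

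Levels of different genes were compared per kilobase of transcript, since longer genes yield more reads. Tspo came last under both lengths tried. Per kilobase of the canonical transcript the order of the means was Vdac2 (127.8 CPM per kilobase), Dbi (57.89), Hk2 (48.95), Vdac1 (30.16), Vdac3 (21.63), Acbd3 (19.03), Tspoap1 (18.24) and Tspo (7.657). In that order Dbi and Hk2 overlapped over the 16 libraries, as did Vdac3, Acbd3 and Tspoap1, while Vdac2, Vdac1 and Tspo kept clear of their neighbours. Tspo ranged from 6.06 to 10.37 CPM per kilobase and Tspoap1, the next gene up, from 11.55 to 24.79. Per kilobase of the union of all annotated exons, Hk2 came first (46.15), followed by Vdac2 (18.61), Dbi (18.49), Tspoap1 (14.52), Vdac1 (12.25), Acbd3 (11.79), Vdac3 (2.28) and Tspo (2.144), and the last pair overlapped. Vdac3, which lost most in place, has 13467 bases in the union against 1419 in the canonical transcript. Near-identical copies covered 89.2% of the Vdac2 and 94.2% of the Vdac3 transcript but 9.2% of that of Vdac1. Reads left out for this reason may have lowered the channels unequally, so the places of Vdac2 and Vdac3 are uncertain in both orders.

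**Figure D4:**
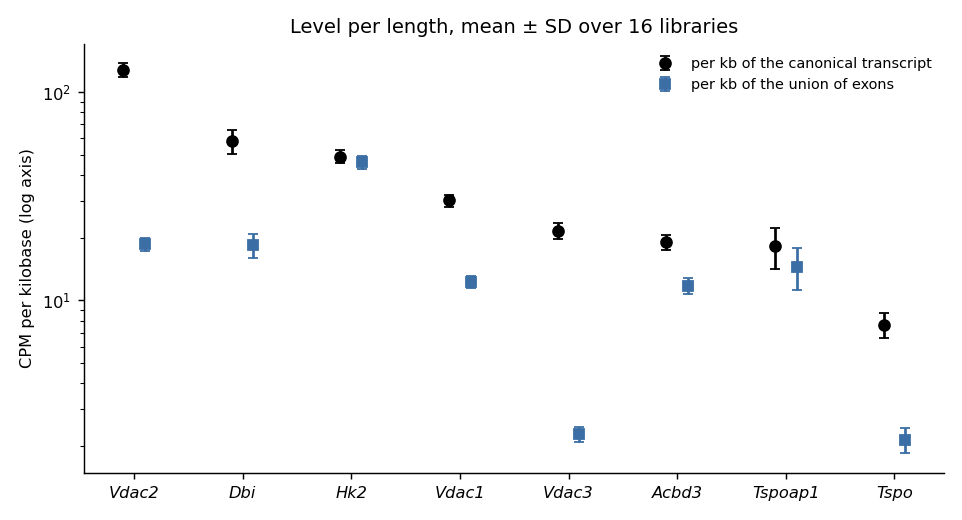
Mean CPM per kilobase ± SD over 16 libraries (vertical log axis) for the 8 genes, with circles for the canonical transcript and squares for the union of exons. Tspo is lowest by both measures, at 7.657 and 2.144 CPM per kilobase, and of the other genes only Acbd3 keeps its place under both lengths.

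Genes with the most similar pattern over the 16 libraries were sought for Tspo, Dbi and Hk2, as a description without a test, among up to 7186 genes with a mean of at least 4 log2 CPM and after subtraction of group means. The libraries differ in depth and in RNA of other cells, and the part of these in the likeness was not tested. For Tspo these were Zfand2a (r = 0.931), Gtf2h1 (0.922), Rragc (0.906), P2rx4 (0.898) and Psmb8 (0.898). P2rx4 is an ATP-gated channel of microglia and Psmb8 a subunit of the immunoproteasome. For Dbi they included Ezr (0.928), Fip1l1 (0.919), Fam107a (0.917) and Scd2 (0.917). For Hk2 they were Efhd2 (0.911), Mesd (0.91), Pign (0.895), Ncf1 (0.884) and Cd86 (0.875), where Ncf1 is the p47phox subunit of the phagocyte NADPH oxidase and Cd86 a costimulatory receptor.

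A wider set of 88 genes, in lists of proteins of the outer mitochondrial membrane, of the complex around the translocator protein and of the NADPH oxidase, held 80 tested genes, of which 1 was called, against 8.64% of all genes. The called gene was Mcl1, an antiapoptotic BCL2 protein of the outer membrane that is short-lived. WT libraries held 615.6 ± 97.8 CPM of it and knock-in libraries 428.6 ± 89.8 CPM (SD, n = 8 per genotype), and no knock-in library was above the WT median. It fell by 0.51 on the log2 scale (SE 0.115, FDR 0.0091), with -0.77 in females (FDR 0.00346) and -0.25 in males (FDR 0.511). The call sits on the fold threshold. Without any of knock-in female replicates 1, 2 and 3, knock-in male replicates 1 and 2, or WT female replicates 2, 3 and 4 the log2 fold change was between -0.49 and -0.45 and the call was lost, while the FDR stayed at 0.0172 to 0.0252 in these fits, and with the neuron covariate the log2 fold change was -0.24 (FDR 0.696).

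**Figure D5:**
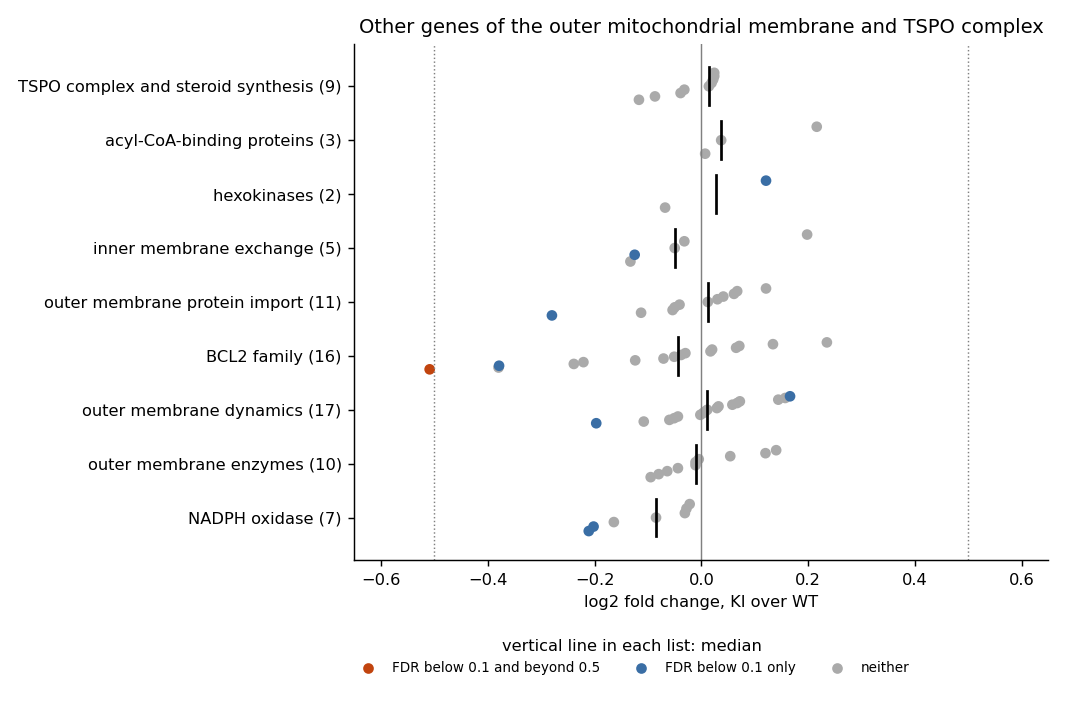
Log2 fold change of KI over WT (horizontal axis) for the 80 tested genes of 9 lists, with the number tested in parentheses, the median of each list as a vertical line and the fold threshold of 0.5 dotted. Mcl1, at -0.51, is the only gene past both thresholds, and the medians of the lists lie between -0.085 and 0.037.

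The other lists stayed near the median of all genes. At the FDR alone 9 of the 80 genes passed (11.2%, against 14.8% of all genes), 2 higher and 7 lower. Of the TSPO complex and steroid synthesis list 9 of 11 genes were tested and 0 passed, with a median of 0.014. Ywhae (521.1 CPM) and Prkar1a (323 CPM), a 14-3-3 protein and a regulatory subunit of protein kinase A, had the highest CPM of the list. Star, which carries cholesterol to the inner membrane, was at 1.037 CPM, and Cyp11a1, which makes pregnenolone, held at most 6 counts in any library and was not tested. Tspo2, the paralog of Tspo, held at most 1 count. The acyl-CoA-binding relatives of Dbi had 3 of 5 genes tested and 0 passing, with Acbd5 (78.82 CPM) and Acbd6 (20.29 CPM) having the highest CPM.

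Among the other hexokinases, Hk1, the isoform of most tissues, had a log2 fold change of 0.12 (SE 0.0414, FDR 0.0745), opposite in sign to Hk2, and all 8 knock-in libraries were above the WT median (53.37 ± 3.21 CPM in WT and 57.98 ± 2.05 CPM in knock-in, SD, n = 8 per genotype). Hk3 (94.11 CPM) stood at -0.068 (FDR 0.407). Of 5 tested exchange carriers of the inner membrane 1 passed the FDR, the phosphate carrier Slc25a3, at -0.12 (FDR 0.0563). The adenine nucleotide carrier Slc25a5 (197.3 CPM) stood at -0.13 (FDR 0.128). In the import machinery 1 of 11 passed, Mtx1, at -0.28 (FDR 0.0753), while the receptors Tomm70a (63.68 CPM) and Tomm20 (55.76 CPM) had FDR values of 0.568 and 0.63. The BCL2 family had 2 of 16 passing, Mcl1 and the BH3-only gene Bbc3 at -0.38 (FDR 0.0821), which was called at -0.50 (FDR 0.00458) without knock-in male replicate 4. Bnip3l (116.4 CPM), a mitophagy receptor, stood at 0.017.

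In the list of outer membrane dynamics 2 of 17 genes passed the FDR, the fusion factor Miga1 at 0.17 (FDR 0.0463) and the ubiquitin ligase Marchf5 at -0.20 (FDR 0.0868), and Pink1 (80.29 CPM) and Fkbp8 (76.14 CPM), those of highest CPM, did not. Of 10 outer membrane enzymes, among them Cyb5b (58.48 CPM) and Cpt1a (52.14 CPM), 0 passed. The NADPH oxidase, with which the translocator protein has been linked in microglia, had 2 of 7 passing (28.6%, against 14.8% of all genes), both lower in knock-in libraries. Of these, Ncf1 measured 417.5 ± 31.8 CPM in WT and 360.7 ± 27.3 CPM in knock-in libraries (SD, n = 8 per genotype; log2 fold change -0.21, SE 0.0544, FDR 0.0204). All 7 had a negative log2 fold change, also with RLE and upper quartile scaling, with a median of -0.085. Over all 18227 tested genes 9034 were above 0. Rac1, with the highest CPM of the list (429.4), was at -0.022 (FDR 0.849).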

How the data were processed

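The authors sequenced paired-end reads of SMART-Seq Stranded libraries, aligned them with STAR v2.7.8 to a customised GRCm39 genome with the gencode vM32 annotation, to which sequences of human App had been added, and deposited raw counts per gene without normalization. The strand column of the counts is not given in the sources used here. Counts were analysed in R 4.3.3 with edgeR 4.0.16: genes that reached 5 counts in 8 or more of the 16 libraries were kept, normalized by TMM and tested by the quasi-likelihood test with a trended dispersion, with sex as an additive term, and groups of genotype and sex were fitted for the contrasts within sexes, for the difference between them and, from the additive fit, for females against males. Calls needed an FDR (Benjamini-Hochberg, over all tested genes) under 0.1 and a log2 fold change beyond 0.5 in either direction. The SE is the log2 fold change, unsigned, over the root of F. Log2 CPM carried a prior count of 2, and exact permutations were two-sided, over 4900 splits for genotype or sex and over 331776 orders within groups for relations to marker lists. Positions, lengths and sequences came from gencode vM39 on the same build, which matched 55211 of 57010 genes, and copies were sought with BLAST at 95% identity over at least 150 bases.

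The members and lists were chosen with earlier results of these data known. Named from the wider lists were called genes, the 2 of highest mean CPM per list and, after their values were seen, those passing the FDR alone, Star, Cyp11a1 and Tspo2. A few genes that the lists or the naming rule hold are not reported by name here. Library totals were 9052932 to 18117286 counts, and genes with few counts are measured less precisely. Scripts were tested on simulated data. Alternatives were RLE and upper quartile scaling, other filters, DESeq2 1.42.0, limma 3.58.1 (voom), other thresholds, marker covariates, a term for library number, a replicate block, no sex term, a fit of 1 sex and leaving out each library. The canonical length was added after seeing the data.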

Additional observations from a re-analysis of the deposited data

Results flagged for a closer look

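Among 44 groups of 4 libraries (the 8 genes and 3 marker lists in each of the 4 groups), 3 held a library that stood apart from its group by Dixon's criterion, where chance flags about 1 in 20 groups, or 2.2 here. Each value is the distance to the closest library divided by the whole range of the group. Tspoap1 was highest in knock-in female replicate 3 (0.848), at 189.7 CPM against 135.9 to 144.1 CPM in the others, and the summed neuron markers were highest in the same library (0.932), at 698 CPM against 587.8 to 595.3 CPM. Tspoap1 was lowest in knock-in male replicate 3 (0.914), at 109 CPM against 167.3 to 172.8 CPM, a library whose neuron markers summed to 498.7 CPM. The part of neuron RNA in these levels was not tested beyond the covariate given with the result.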

How the results depend on the processing

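Of the 8 genes, 0 were called over both sexes in all 30 alternatives except the FDR alone, which gave 1 (Hk2, at -0.14), and in females in all but 1 left-out fit (range 0 to 1). In males, for the difference between the sexes and for females against males the number was 0 throughout. Directions turned in several alternatives for Tspo, Vdac1 and Vdac3, whose values were near 0, and with the neuron covariate alone for Vdac2, Tspoap1 and Acbd3. Tspo was at 0.008 with upper quartile scaling, 0.003 with a minimum of 10 counts in 4 libraries, 0.27 with the neuron covariate, and -0.065 to 0.051 with single libraries left out. Vdac1 was at 0.003 with upper quartile scaling, 0.043 with the neuron covariate and -0.025 to 0.024 with libraries left out, and Vdac3 at 0.09 with the covariate and -0.026 to 0.034 with libraries left out. The same covariate gave 0.028 for Vdac2, -0.18 for Tspoap1 and 0.061 for Acbd3. Without a filter the FDR of Tspoap1 was 0.00316 and that of Hk2 0.174. In the wider lists the called number of 1 became 0 with upper quartile scaling and with the neuron, endothelial or astrocyte covariate, 2 without a filter, where Slc25a31 with at most 4 counts joined, 9 (2 higher, 7 lower) at the FDR alone and 0 to 2 with libraries left out. The cause of these shifts was not tested. Libraries of the same replicate number had mean correlations of their deviations of -0.019 to 0.073, which showed no clear pairing. Single pairs ran from -0.33 to 0.292. Of the 6 pairs of each number, 3 were above 0.1 for numbers 2 and 4 and 1 for numbers 1 and 3. Whether the numbers stand for pairs or batches was not tested. With the replicate block 0 of the 8 genes were called, the wider lists kept 1, and Tspoap1 was at 0.33 (FDR 0.128). The depth of 54 to 150 counts limits Tspo.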
